A study of Arabidopsis thaliana with 29 samples.

Results

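What separates the leaf transcriptomes of 2 Arabidopsis thaliana lines, 35S-GDU5 and gdu1-1D, was read from the change of each line against the same wild type, Col. For each entry of the deposited tables the log2 ratio of gdu1-1D to Col was subtracted from the log2 ratio of 35S-GDU5 to Col, so that the shared Col value drops out. Of 32650 entries, 17563 were tested by the authors in both lines. Of these, 17 were listed at 0 FPKM (fragments scaled to transcript length and library size) in a group and have no ratio, which left 17546 differences. The 35S-GDU5 group has 2 libraries and carries GDU5 behind the constitutive viral 35S promoter. The gdu1-1D group has 3 libraries of a mutant in which the resident GDU1 gene is strongly expressed. Both lines and the 2 Col libraries are of the Columbia ecotype, were not treated, and were grown on soil for 23 days in a chamber at 22 °C with 16 h of light and 8 h of dark. The text of the series gives 4 weeks of growth instead of 23 days. RNA came from all leaves of pools of 4 to 6 plants, and 29 libraries in all were sequenced in the series. Each of the constitutive groups stands for 1 line, and the labels name no second insertion line for either, so line and transgene cannot be told apart.

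GLUTAMINE DUMPER (GDU) proteins are small plant proteins with 1 membrane span. Their over-expression in Arabidopsis raises amino acid export from cells, makes leaves secrete glutamine and gives small plants with lesions and a high defence state. The effect of GDU1 needs LOG2, a ubiquitin ligase that binds it. The GDU genes form a small family whose members give similar but not equal phenotypes when over-expressed, and the comparison here asks how far the transcriptome of a GDU5 over-expressor departs from that of a GDU1 over-expressor.

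Each difference below is a log2 value, 35S-GDU5 minus gdu1-1D, given ± its standard error. The tables hold 1 FPKM per group and no library values, so each standard error was worked back from the authors' p-value for that line. The 2 standard errors were combined, the ratio was tested against a normal distribution (two-sided), and p-values were Benjamini-Hochberg adjusted over the 17546 entries; an entry is called where this adjusted p is below 0.05. FPKM values of Col are those of the 35S-GDU5 table, in which Col stands 1.04 times above its values in the gdu1-1D table. The p-values measure the spread that Cuffdiff estimated between libraries, which the labels name biological replicates.

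In all, 933 entries were called higher in 35S-GDU5 than in gdu1-1D, which is 5.32% of those tested, and 864 were called lower, which is 4.92%. The median difference over all entries was -0.02, with quartiles of -0.23 and 0.25. The called entries that were higher had a median difference of 0.94, and 435 of them differed by at least 1. Those that were lower had a median of -0.62, and 128 differed by at least 1. The authors' deposited tables call 709 of the 933 higher entries higher than Col in 35S-GDU5 and 502 of them lower than Col in gdu1-1D. Against Col, these tables call 28.5% of tested entries higher and 26.5% lower in 35S-GDU5, and 23.1% higher and 21.4% lower in gdu1-1D, at a q-value below 0.05, as given by the authors' deposited tables. Of the 864 lower entries the authors' deposited tables call 743 lower than Col in 35S-GDU5 and 212 higher than Col in gdu1-1D. The test was blunt where both lines changed strongly, because the tables stop at a p-value of 5e-05 and the standard error there is only an upper bound. Of 3335 entries at that smallest p-value in both tables, 116 were called. With the typical standard error of entries of the same Col level in its place, an alternative chosen after seeing the data, 2018 entries were called higher and 2171 lower (11.5% and 12.4%).

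**Figure D1:**
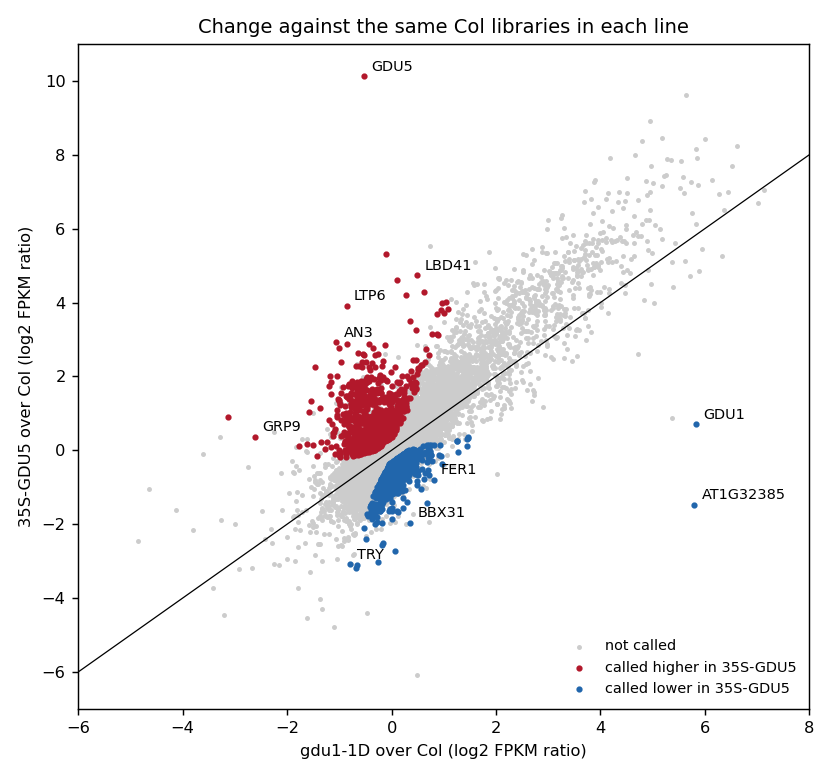
Log2 FPKM ratio to Col of every entry, in 35S-GDU5 (vertical) and in gdu1-1D (horizontal), both against the same Col libraries, with the line of equal change. Red points are the 933 entries called higher and blue points the 864 called lower in 35S-GDU5; 2 entries lie outside the axes, and grey points far up the line changed in both lines and could rarely be called.

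The over-expressed genes marked the lines as labelled. GDU5 (chromosome 5, 8584665 to 8585275, TAIR10) reached 3198 FPKM in 35S-GDU5, against 1.92 FPKM in gdu1-1D and 2.86 FPKM in Col. Its difference was 10.65 ± 2.51. GDU1 (chromosome 4, 15361091 to 15361850) stood at 8.78 FPKM in 35S-GDU5, 294 FPKM in gdu1-1D and 5.38 FPKM in Col. Its difference was -5.12 ± 1.45. The over-expressed gene was thus far more abundant in the 35S line than in the mutant. Tested from the authors' p-values, the called genes named here had an adjusted p between GDU5 (p = 0.000915) and GDU1 (p = 0.00814).

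Of the 8 entries for GDU genes and LOG2, all tested, 4 were called higher and 1 lower (5.32% and 4.92% of all entries). These calls include GDU5 and GDU1, the over-expressed genes of the lines themselves. GDU6 was the largest of the others, at 60.6 FPKM in 35S-GDU5, 6.76 FPKM in gdu1-1D and 10.122 FPKM in Col (difference 3.11 ± 0.68). GDU2 had 7.23 FPKM in 35S-GDU5, 2.15 FPKM in gdu1-1D and 2.92 FPKM in Col (1.70 ± 0.39). GDU3 had 16.0 FPKM in 35S-GDU5, 7.63 FPKM in gdu1-1D and 7.16 FPKM in Col (1.02 ± 0.32). In the 35S-GDU5 line 3 resident GDU genes therefore lay above both gdu1-1D and Col, and how reads shared between related GDU genes were assigned is not given in the sources used here. The call of GDU3 was lost with standard errors from the deposited test statistic. GDU7 was below Col in both lines, at 0.592 FPKM in 35S-GDU5, 0.659 FPKM in gdu1-1D and 3.36 FPKM in Col, with no call between them (-0.21 ± 1.32). GDU4 lies in an entry that joins a long stretch, and its difference of -1.002 ± 2.57 says little. LOG2, the ubiquitin ligase partner, had 28.3 FPKM in 35S-GDU5, 24.4 FPKM in gdu1-1D and 21.5 FPKM in Col, a difference of 0.17 ± 0.13, not called. Among the called genes here, GDU6 had the smallest adjusted p (0.000248) and GDU3 the largest (0.0204), computed from the authors' p-values.

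**Figure D2:**
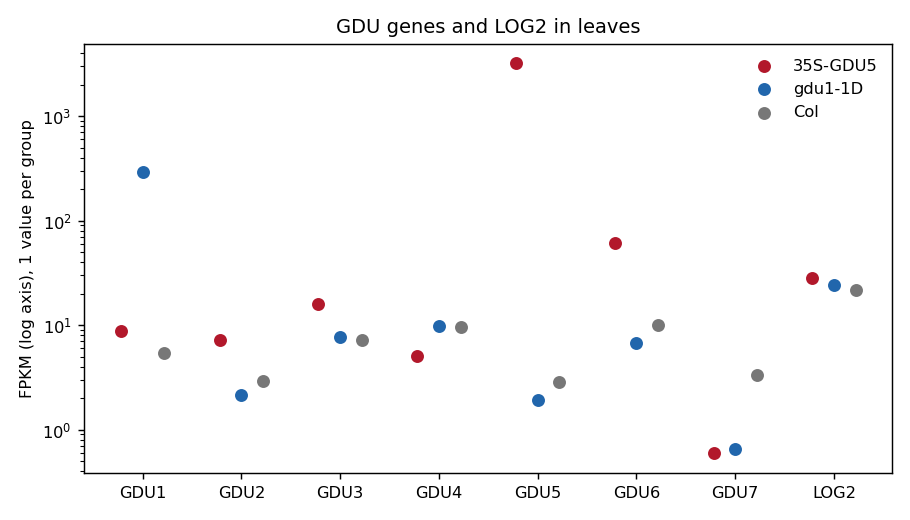
FPKM (log axis) of the 7 GDU genes and LOG2 in 35S-GDU5, gdu1-1D and Col, 1 value per group with no error. GDU5 at 3198 FPKM stands out in 35S-GDU5 and GDU1 at 294.3 FPKM in gdu1-1D, while LOG2 lies between 21.5 and 28.3 FPKM.

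No tested neighbour of the over-expressed genes was called, but RPS6 and WIN2 beside GDU1 and COL4 and AT5G24970 beside GDU5 were called with the shared Col libraries taken out, and RPS6 also with the typical standard error. Of the 5 tabled genes on each side of GDU1, 5 were tested. WIN2 had 10.075 FPKM in 35S-GDU5, 11.5 FPKM in gdu1-1D and 9.56 FPKM in Col (-0.25 ± 0.14). COL4, a CONSTANS-like gene and 1 of 3 tested neighbours of the 35S line's gene, had 180.4 FPKM in 35S-GDU5, 205 FPKM in gdu1-1D and 225 FPKM in Col (-0.24 ± 0.11).

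Genes of dividing cells gave a uniform contrast. Of 19 mitotic genes, a list added after the values were seen, with 18 entries because CDC20.1 and CDC20.2 are joined, 16 were called higher in 35S-GDU5 than in gdu1-1D and none lower, beside 5.32% of all entries. Their median difference was 1.80, against -0.02 over all entries. Because the list was made with the values known, its count of calls adds no support. TPX2, which nucleates spindle microtubules, had 7.07 FPKM in 35S-GDU5, 1.11 FPKM in gdu1-1D and 1.93 FPKM in Col (2.62 ± 0.51). HIK, the HINKEL kinesin of cell plate formation, had 7.17 FPKM in 35S-GDU5, 1.12 FPKM in gdu1-1D and 2.06 FPKM in Col (2.62 ± 0.49). The B-type cyclin CYCB1;2, listed as CYC1BAT, had 13.6 FPKM in 35S-GDU5, 2.42 FPKM in gdu1-1D and 4.22 FPKM in Col (2.44 ± 0.46). These genes were above Col in 35S-GDU5 and below Col in gdu1-1D. KN, the KNOLLE syntaxin of the cell plate, had 29.4 FPKM in 35S-GDU5, 5.63 FPKM in gdu1-1D and 8.71 FPKM in Col. The joined entry of CDC20.1 and CDC20.2, activators of the anaphase-promoting complex, had 23.3 FPKM in 35S-GDU5, 3.98 FPKM in gdu1-1D and 6.54 FPKM in Col. The authors' deposited tables call 16 of the 18 entries higher than Col in 35S-GDU5 (28.5% of all entries) and 12 lower than Col in gdu1-1D (21.4% of all). The uncalled members were CYCB1;1 (0.17 ± 0.68) and CYCB2;1 (1.07 ± 0.44). The adjusted p, built on the authors' p-values, was 1.44e-05 for HIK and at most 4.17e-05, for TPX2, over the called genes named here.

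Genes of DNA replication differed the same way by less. Of 12 entries 10 were called higher (5.32% of all) and none lower, with a median difference of 0.71. This list too was added after the values were seen, and its count of calls adds no support. PCNA1, the sliding clamp of DNA polymerase, had 16.2 FPKM in 35S-GDU5, 7.78 FPKM in gdu1-1D and 12.5 FPKM in Col (1.01 ± 0.21). PRL, the MCM7 helicase subunit, had 11.3 FPKM in 35S-GDU5, 5.93 FPKM in gdu1-1D and 8.65 FPKM in Col (0.87 ± 0.20). MCM6, of the same helicase, had 6.24 FPKM in 35S-GDU5, 3.37 FPKM in gdu1-1D and 5.13 FPKM in Col (0.84 ± 0.17). PCNA2 repeated the pattern of PCNA1, at 22.2 FPKM in 35S-GDU5, 10.7 FPKM in gdu1-1D and 16.6 FPKM in Col. The calls of PCNA1, PCNA2, PRL and MCM6 were lost when standard errors were taken from the deposited test statistic. TSO2, a ribonucleotide reductase subunit, was nearly level at 43.5 FPKM in 35S-GDU5, 38.8 FPKM in gdu1-1D and 41.1 FPKM in Col. From the authors' p-values the adjusted p was smallest for MCM6 (5.62e-05) and largest for PRL (0.000777) of the called genes named here.

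**Figure D3:**
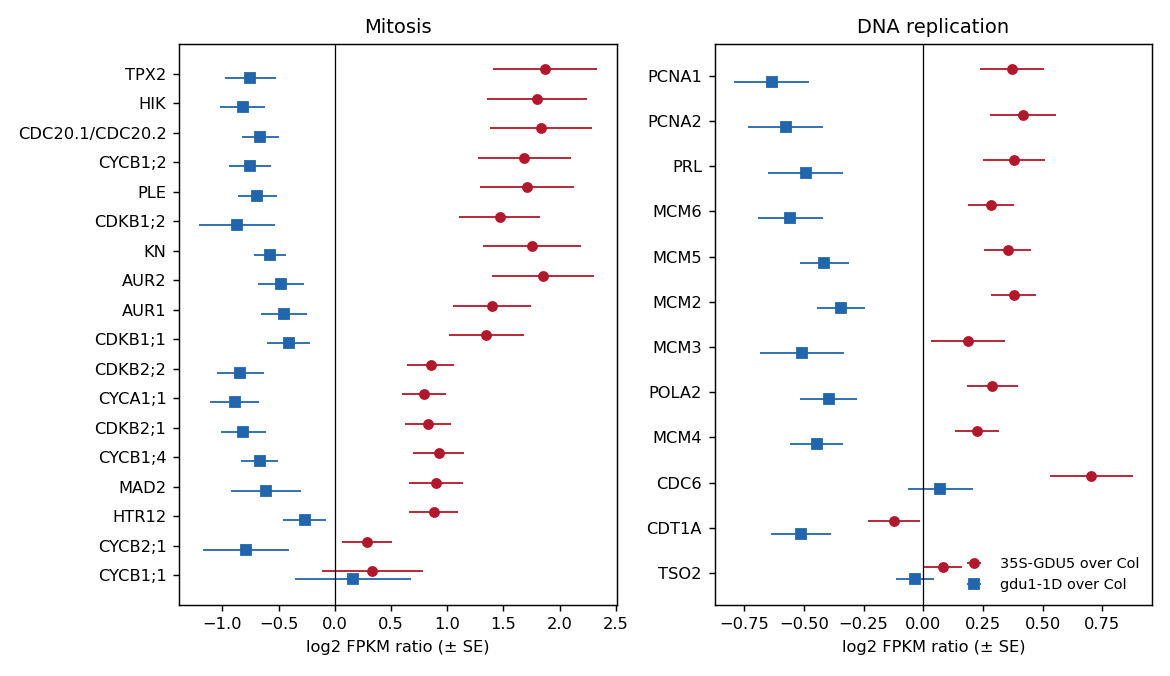
Log2 FPKM ratio to Col (± SE worked back from the authors' p-value) of mitotic genes (left) and DNA replication genes (right), red circles for 35S-GDU5 and blue squares for gdu1-1D. Most mitotic genes lie right of 0 in 35S-GDU5 and left of 0 in gdu1-1D, and the replication genes do so over a narrower range.

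Promoters of these genes are shown because the members moved together. Mitotic genes of plants are known to carry the MSA element, bound by MYB3R factors, with the core AACGG, sought on both strands, and replication genes the E2F site, sought on both strands as TTTCCCGC and TTTGGCGC. Windows are the 250 bases before the annotated gene start in the RefSeq annotation of TAIR10.1, 5′ to 3′ on the gene's strand, with the motif in capitals. HIK lies on the minus strand with its window at chr1:6324379-6324628, CYCB1;2 on the minus strand at chr5:1861704-1861953 and MCM5 on the minus strand at chr2:3527501-3527750.
HIK: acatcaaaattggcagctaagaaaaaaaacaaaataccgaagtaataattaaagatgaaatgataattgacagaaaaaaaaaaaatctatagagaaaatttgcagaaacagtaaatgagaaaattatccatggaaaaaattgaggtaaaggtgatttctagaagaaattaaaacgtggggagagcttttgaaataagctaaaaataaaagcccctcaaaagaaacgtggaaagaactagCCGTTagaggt
CYCB1;2: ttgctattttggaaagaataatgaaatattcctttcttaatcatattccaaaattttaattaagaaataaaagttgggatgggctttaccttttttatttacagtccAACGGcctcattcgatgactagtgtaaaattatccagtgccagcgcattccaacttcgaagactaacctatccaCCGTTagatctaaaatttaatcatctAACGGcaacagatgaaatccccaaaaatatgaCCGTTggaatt
MCM5: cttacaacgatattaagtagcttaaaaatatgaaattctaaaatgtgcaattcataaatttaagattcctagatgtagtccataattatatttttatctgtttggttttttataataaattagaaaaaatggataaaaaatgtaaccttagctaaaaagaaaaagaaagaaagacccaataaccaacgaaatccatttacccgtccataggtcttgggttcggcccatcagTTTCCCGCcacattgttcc
The first 2 windows hold the MSA core and the last holds an E2F site. At least 1 MSA core stood in 13 of the 19 mitotic windows and in 2 of the 12 replication windows, against 20.57% of the 27443 windows of all protein-coding genes. At least 2 stood in 6 of the 19 mitotic windows, against 3.62% of all. TTTCCCGC stood in 3 of the 12 replication windows, those of MCM2, MCM5 and MCM6, against 0.62% of all, and TTTGGCGC in 2, those of MCM3 and MCM4, against 0.36%. Neither form stood in a mitotic window. The motifs searched do not overlap in these windows, and a match is a description of letters, not a measured binding site.

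Markers of the shoot apex were set beside the mitotic genes. The list of 14 shoot apex genes, added after the values were seen, summed to 58.5 FPKM in 35S-GDU5, 25.9 FPKM in gdu1-1D and 37.4 FPKM in Col. STM, the homeobox gene that defines the shoot meristem, had 4.24 FPKM in 35S-GDU5 and was listed at 0 in gdu1-1D and in Col. It was tested in 35S-GDU5 alone and could pass Cuffdiff's test filter through that group, so nothing is read from its height there. KNAT1, a homeobox gene of the same class, had 3.06 FPKM in 35S-GDU5, 0.0170 FPKM in gdu1-1D and 0.0107 FPKM in Col. WUS, of the stem cell niche, was listed at 0 in all 3 groups, and CLV3 had 0.0913 FPKM in 35S-GDU5 and 0 in the others. Only 4 of the 14 could be tested in both lines, and 2 of them were called higher (5.32% of all entries), LSH3 and LSH4. LSH4, a gene of organ boundaries, had 20.104 FPKM in 35S-GDU5, 3.70 FPKM in gdu1-1D and 6.06 FPKM in Col. The part of these cells in the mitotic result was not tested, and in these bulk leaf samples more cells of a type and more RNA per cell cannot be told apart.

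Among regulators of leaf growth, AN3, a coactivator that promotes cell proliferation in leaf primordia, was called higher, at 15.2 FPKM in 35S-GDU5, 0.930 FPKM in gdu1-1D and 2.00 FPKM in Col (3.98 ± 0.79). It was the 1 called entry of 10 tested on its list, beside 5.32% of all entries called higher. That list was also added after the values were seen. GRF5, a growth-regulating transcription factor that binds AN3, had 4.78 FPKM in 35S-GDU5, 0.0463 FPKM in gdu1-1D and 0 in Col. KLU, listed as CYP78A5, a cytochrome P450 that prolongs organ growth, had 2.90 FPKM in 35S-GDU5 and was listed at 0 in gdu1-1D and Col. Neither could be given a difference. In all, 566 entries were tested in the 35S-GDU5 table alone, and the authors' deposited table calls 314 of them higher than Col. Such entries could pass Cuffdiff's test filter through the group where they are high, so nothing is read from that count. With the authors' p-values as input, AN3 had an adjusted p = 4.87e-05.

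The 15 genes named for the size of a positive difference include the following, which belong to no single list. LTP6, a lipid transfer protein, had 123 FPKM in 35S-GDU5, 4.37 FPKM in gdu1-1D and 8.19 FPKM in Col (4.77 ± 0.99). PEL3, an acyltransferase needed for cutin, had 21.0 FPKM in 35S-GDU5, 0.899 FPKM in gdu1-1D and 0.865 FPKM in Col (4.49 ± 1.16). PDF1, a protein of the outermost cell layer of young organs, had 163 FPKM in 35S-GDU5, 17.629 FPKM in gdu1-1D and 26.7 FPKM in Col (3.16 ± 0.66). LTP6 and PDF1 were below Col in gdu1-1D, while PEL3 stayed near its Col level there. GH9B13, a putative endoglucanase, had 9.41 FPKM in 35S-GDU5, 0.669 FPKM in gdu1-1D and 1.39 FPKM in Col (3.76 ± 0.73). E13L3, which binds callose at plasmodesmata and is also known as PDCB2, had 15.5 FPKM in 35S-GDU5, 1.14 FPKM in gdu1-1D and 2.13 FPKM in Col (3.72 ± 0.75). PME5, a pectin methylesterase, had 35.6 FPKM in 35S-GDU5, 4.53 FPKM in gdu1-1D and 10.7 FPKM in Col (2.93 ± 0.52). GH9B13, E13L3 and PME5 were thus above Col in 35S-GDU5 and below Col in gdu1-1D. PP2-A5, a phloem protein homologue (3.304 ± 0.73), AGP31, an arabinogalactan protein (3.12 ± 0.69), ENODL13, an early nodulin-like protein (3.06 ± 0.63), and GRP9, a glycine-rich protein (2.97 ± 0.67), were called higher too. GRP9 differed mainly through gdu1-1D, with 8.10 FPKM in 35S-GDU5, 0.995 FPKM in gdu1-1D and 6.30 FPKM in Col, and its call was lost with standard errors from the test statistic. Among the called genes here, PME5 had the smallest adjusted p (6.33e-06) and PEL3 the largest (0.00280), computed from the authors' p-values.

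Of 16 cell wall loosening genes tested, 2 were called higher and 2 lower (5.32% and 4.92% of all entries), with a median difference of -0.31. XTH9, a xyloglucan endotransglucosylase of meristems and young tissue, had 149.8 FPKM in 35S-GDU5, 38.3 FPKM in gdu1-1D and 52.9 FPKM in Col (1.92 ± 0.38). The expansin EXPA4 had 28.6 FPKM in 35S-GDU5, 20.022 FPKM in gdu1-1D and 27.5 FPKM in Col (0.46 ± 0.13). EXPA8 and EXPA1, also expansins, were lower. EXPA8 had 40.5 FPKM in 35S-GDU5, 101 FPKM in gdu1-1D and 132 FPKM in Col (-1.37 ± 0.43). EXPA1 had 145 FPKM in 35S-GDU5, 297 FPKM in gdu1-1D and 407 FPKM in Col (-1.09 ± 0.38). EXPA16, outside the list, had 3.78 FPKM in 35S-GDU5, 9.11 FPKM in gdu1-1D and 3.91 FPKM in Col (-1.32 ± 0.35), so that here gdu1-1D departed from Col. Centring and raised standard errors each ended the call of EXPA1, and standard errors from the test statistic ended those of EXPA4 and EXPA16. The adjusted p, built on the authors' p-values, was 6.34e-05 for XTH9 and at most 0.0440, for EXPA1, over the called genes named here.

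Several genes induced by low oxygen were higher in 35S-GDU5 than in gdu1-1D. Plants sense oxygen through the N-degron pathway, in which plant cysteine oxidases (PCO) mark ERF-VII factors for breakdown, and these factors switch on a core set of genes when oxygen falls. Of 25 core genes 14 were tested, 6 were called higher (5.32% of all entries) and none lower, with a median difference of 1.15. The list was added after the values were seen, so its count of calls adds no support. LBD41, a LOB-domain transcription factor of this core set, had 22.7 FPKM in 35S-GDU5, 1.14 FPKM in gdu1-1D and 0.846 FPKM in Col (4.26 ± 1.196). HRA1, a repressor of the ERF-VII factor RAP2.12, listed as AT3G10040, had 7.09 FPKM in 35S-GDU5, 0.928 FPKM in gdu1-1D and 1.35 FPKM in Col (2.88 ± 0.65). WIP4, a wound-induced peptide, listed as AT4G10270, had 20.4 FPKM in 35S-GDU5, 1.56 FPKM in gdu1-1D and 1.06 FPKM in Col (3.66 ± 1.16). In gdu1-1D these 3 genes stayed under 2 FPKM, near their Col levels. CML38, a calmodulin-like protein, had 26.1 FPKM in 35S-GDU5, 3.59 FPKM in gdu1-1D and 2.02 FPKM in Col (2.81 ± 0.94). PGB1, a phytoglobin that scavenges nitric oxide, had 15.1 FPKM in 35S-GDU5, 4.51 FPKM in gdu1-1D and 4.20 FPKM in Col (1.69 ± 0.48). ADH1, the fermentation enzyme alcohol dehydrogenase, had 6.28 FPKM in 35S-GDU5, 2.09 FPKM in gdu1-1D and 2.55 FPKM in Col (1.54 ± 0.41). Among members without a difference, PCO1 had 5.00 FPKM in 35S-GDU5, 0.505 FPKM in gdu1-1D and 0.288 FPKM in Col. Other members did not share the pattern: SUS1, a sucrose synthase, had 12.4 FPKM in 35S-GDU5, 15.3 FPKM in gdu1-1D and 17.444 FPKM in Col, and PDC1, pyruvate decarboxylase, was at most 0.322 FPKM in any of the groups. From the authors' p-values the adjusted p was smallest for HRA1 (0.000409) and largest for CML38 (0.0324) of the called genes named here.

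**Figure D4:**
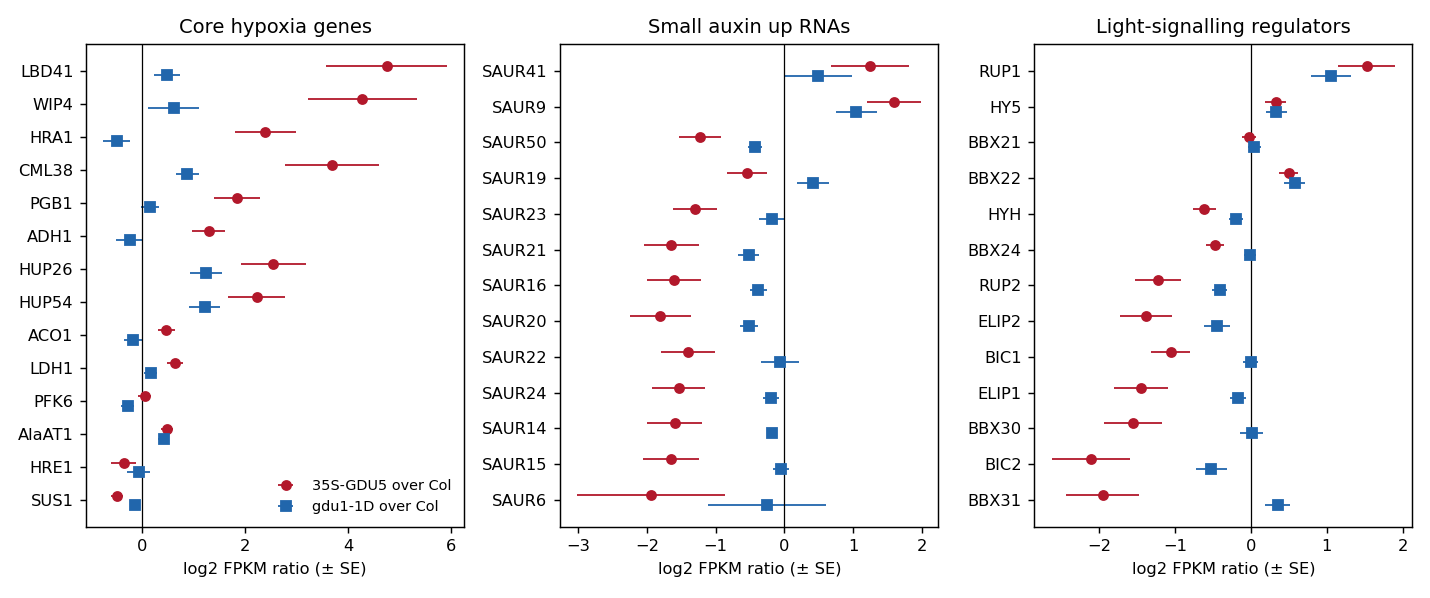
Log2 FPKM ratio to Col (± SE worked back from the authors' p-value) of tested core hypoxia genes, small auxin up RNAs and light-signalling regulators, red circles for 35S-GDU5 and blue squares for gdu1-1D. Most of the departure from Col is in 35S-GDU5, upward for LBD41, WIP4 and HRA1 and downward for most SAUR genes and for BBX30, BBX31, BIC1 and BIC2.

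ERF5 and ERF105, ethylene response factors, were higher in 35S-GDU5 than in gdu1-1D. Of 13 ethylene genes tested, 2 were called higher (5.32% of all entries) and none lower, with a median difference of 1.65. ERF5 had 28.9 FPKM in 35S-GDU5, 3.55 FPKM in gdu1-1D and 1.79 FPKM in Col (2.97 ± 1.02). ERF105 had 39.3 FPKM in 35S-GDU5, 4.65 FPKM in gdu1-1D and 2.48 FPKM in Col (3.03 ± 1.01). ERF6 had 59.4 FPKM in 35S-GDU5, 5.07 FPKM in gdu1-1D and 1.44 FPKM in Col, and was not called. With the typical standard error 8 of the 13 were called higher (11.5% of all entries), and with standard errors raised to the typical one ERF5 lost its call. Tested from the authors' p-values, the called genes named here had an adjusted p between ERF105 (p = 0.0325) and ERF5 (p = 0.0394).

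Defence lists had medians above Col in both lines, and few of their differences could be called. The pattern-triggered immunity list had a median difference of 1.39, with 1 of 17 tested called higher (5.32% of all entries) and none lower. With the typical standard error 9 of 17 were called higher (11.5% of all entries). RBOHD, the oxidase of the immune oxidative burst, was the called member, at 51.0 FPKM in 35S-GDU5, 21.5 FPKM in gdu1-1D and 16.1 FPKM in Col (1.19 ± 0.43). WRKY33, a transcription factor of camalexin defence, had 157 FPKM in 35S-GDU5, 35.1 FPKM in gdu1-1D and 7.12 FPKM in Col (2.11 ± 1.24, not called). WRKY53 had 72.4 FPKM in 35S-GDU5, 15.5 FPKM in gdu1-1D and 0.983 FPKM in Col (2.17 ± 1.82, not called). PROPEP2, precursor of a danger peptide, was listed at 0 in Col and has no ratio, with 4.31 FPKM in 35S-GDU5 and 0.941 FPKM in gdu1-1D. With the authors' p-values as input, RBOHD had an adjusted p = 0.0499.

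Genes for salicylic acid and pipecolic acid synthesis had a positive median difference as well. None of the 9 tested was called, their median difference was 0.67, and 5 were called higher with the typical standard error (11.5% of all entries). ICS1, which makes the precursor of salicylic acid, had 54.7 FPKM in 35S-GDU5, 31.6 FPKM in gdu1-1D and 11.5 FPKM in Col (0.74 ± 0.67). CBP60G, a transcription factor that activates ICS1, had 77.0 FPKM in 35S-GDU5, 22.7 FPKM in gdu1-1D and 2.85 FPKM in Col (1.71 ± 1.39). ALD1, the first enzyme of pipecolic acid synthesis, had 11.4 FPKM in 35S-GDU5, 13.4 FPKM in gdu1-1D and 0.333 FPKM in Col (-0.28 ± 1.83). Of 19 genes for salicylic acid signalling and outputs none was called, with a median difference of 0.52. With the typical standard error 10 were called higher (11.5% of all entries). The jasmonate response list had 1 of 16 called, JMT, which was lower (-0.78 ± 0.27), beside 4.92% of all entries, and a median of 0.91. With the typical standard error 9 of the 16 were called higher and 2 lower (11.5% and 12.4% of all entries). Camalexin and indole glucosinolate genes had no call among 10 and a median of 0.93.

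Several light-signalling regulators were lower in 35S-GDU5 than in gdu1-1D. Of 13 tested, 6 were called lower and none higher, beside 4.92% of all entries, and the median difference was -0.81. The list was added after the values were seen, so its count of calls adds no support. BBX31, a B-box microprotein, had 1.58 FPKM in 35S-GDU5, 7.59 FPKM in gdu1-1D and 6.15 FPKM in Col (-2.31 ± 0.51). BBX30, its close relative, had 3.81 FPKM in 35S-GDU5, 10.9 FPKM in gdu1-1D and 11.3 FPKM in Col (-1.57 ± 0.42). ELIP1, an early light-induced protein of chloroplasts, had 6.21 FPKM in 35S-GDU5, 14.5 FPKM in gdu1-1D and 17.0 FPKM in Col (-1.28 ± 0.37). In all of these gdu1-1D lay near Col. BIC1, an inhibitor of cryptochrome, had 19.2 FPKM in 35S-GDU5, 38.5 FPKM in gdu1-1D and 40.0 FPKM in Col (-1.06 ± 0.28). BIC2, listed as AT3G44450 in an entry that covers 51728 bases, had 29.3 FPKM in 35S-GDU5, 84.8 FPKM in gdu1-1D and 127 FPKM in Col (-1.59 ± 0.56), and centring the differences on their median or raising standard errors ended its call. HY5, the master regulator of light responses, did not share the pattern, with 7.87 FPKM in 35S-GDU5, 7.63 FPKM in gdu1-1D and 6.28 FPKM in Col (-0.01 ± 0.19). The adjusted p, built on the authors' p-values, was 0.000329 for BBX31 and at most 0.0468, for BIC2, over the called genes named here.

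Several small auxin up RNAs (SAUR), which auxin induces during cell expansion, were lower too. Of 13 tested, 5 were called lower (4.92% of all entries) and none higher, with a median difference of -1.22. This list too was added after the values were seen, and its count of calls adds no support. SAUR15 had 8.28 FPKM in 35S-GDU5, 24.2 FPKM in gdu1-1D and 25.9 FPKM in Col (-1.60 ± 0.42). SAUR14, listed as AT4G38840, had 54.7 FPKM in 35S-GDU5, 141 FPKM in gdu1-1D and 165 FPKM in Col (-1.42 ± 0.40). SAUR24 had 8.99 FPKM in 35S-GDU5, 22.0 FPKM in gdu1-1D and 26.1 FPKM in Col (-1.34 ± 0.40). SAUR9 and SAUR41 were above Col in 35S-GDU5 and were not called between the lines (0.55 ± 0.50 and 0.75 ± 0.74). On the auxin response list, which also holds SAUR15, 13 were tested and 3 were called lower. PIN3, which moves auxin sideways in tropisms, had 30.3 FPKM in 35S-GDU5, 41.1 FPKM in gdu1-1D and 39.2 FPKM in Col (-0.49 ± 0.12). IAA6, an auxin response repressor, had 1.83 FPKM in 35S-GDU5, 3.57 FPKM in gdu1-1D and 1.98 FPKM in Col (-1.02 ± 0.33). Standard errors from the test statistic ended the calls of PIN3 and IAA6, and raised standard errors that of IAA6. From the authors' p-values the adjusted p was smallest for PIN3 (0.00131) and largest for IAA6 (0.0261) of the called genes named here.

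Of 12 gibberellin genes 2 were called higher and 3 lower (5.32% and 4.92% of all entries). GA2OX2, which inactivates gibberellin, had 9.48 FPKM in 35S-GDU5, 2.75 FPKM in gdu1-1D and 1.92 FPKM in Col (1.73 ± 0.60). GA20OX1, a synthesis enzyme, had 1.05 FPKM in 35S-GDU5, 2.89 FPKM in gdu1-1D and 3.65 FPKM in Col (-1.51 ± 0.47). GASA1 and GASA6, gibberellin-regulated peptides, were called lower (-0.98 ± 0.20 and -0.87 ± 0.30). Cytokinin genes had 3 of 13 called higher and none lower, with a median difference of 0.01. CKX4, which degrades cytokinin, had 12.3 FPKM in 35S-GDU5, 6.26 FPKM in gdu1-1D and 6.73 FPKM in Col (0.92 ± 0.24). RR5, a response regulator, had 12.2 FPKM in 35S-GDU5, 8.48 FPKM in gdu1-1D and 11.4 FPKM in Col (0.48 ± 0.14). CRF1, a cytokinin response factor, was lowest in gdu1-1D, with 1.18 FPKM in 35S-GDU5, 0.367 FPKM in gdu1-1D and 1.07 FPKM in Col (1.64 ± 0.58). The calls of RR5 and CRF1 were lost with standard errors from the test statistic, and that of CRF1 also with a pseudocount of 1 FPKM. Raised standard errors ended the calls of GA2OX2, GASA6 and CRF1. Tested from the authors' p-values, the called genes named here had an adjusted p between GASA1 (p = 6.47e-05) and CRF1 (p = 0.0489).

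Some aquaporins and aliphatic glucosinolate genes were moderately lower in 35S-GDU5 than in gdu1-1D. Of 14 aquaporins 5 were called lower (4.92% of all entries) and none higher, with a median of -0.34. PIP1A, a plasma membrane water channel, had 238 FPKM in 35S-GDU5, 335 FPKM in gdu1-1D and 261 FPKM in Col (-0.55 ± 0.13). PIP2E had 138 FPKM in 35S-GDU5, 201.43 FPKM in gdu1-1D and 230.0 FPKM in Col (-0.59 ± 0.20). Of 15 aliphatic glucosinolate genes 6 were called lower, none higher, and all 15 had a negative difference (median -0.39, beside -0.02 over all entries). MYB28, the main transcription factor of the pathway, had 44.9 FPKM in 35S-GDU5, 75.3 FPKM in gdu1-1D and 96.0 FPKM in Col (-0.80 ± 0.28), a call that centring ended. IMS2, a chain elongation enzyme, had 13.9 FPKM in 35S-GDU5, 23.0 FPKM in gdu1-1D and 14.4 FPKM in Col (-0.78 ± 0.20). CYP83A1, an early enzyme of the core pathway, had 189 FPKM in 35S-GDU5, 250.4 FPKM in gdu1-1D and 227 FPKM in Col (-0.46 ± 0.11). The calls of PIP1A, PIP2E, IMS2 and CYP83A1 were lost with standard errors from the test statistic, and those of PIP2E, MYB28 and CYP83A1 with raised standard errors. Among the called genes here, PIP1A had the smallest adjusted p (0.000711) and MYB28 the largest (0.0468), computed from the authors' p-values.

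Photosynthesis genes had a median log2 ratio to Col of -0.95 in 35S-GDU5 and -0.48 in gdu1-1D, and all 17 tested had a negative difference, between -0.85 and -0.25, with a median of -0.49. None was called, and 15 were called lower with the typical standard error (12.4% of all entries). RBCS1B, a Rubisco small subunit, had 907 FPKM in 35S-GDU5, 1581 FPKM in gdu1-1D and 3332 FPKM in Col (-0.85 ± 0.53). The other 5 of the 22 members were not tested and are listed at 0 in gdu1-1D, such as RCA, Rubisco activase, with 4317 FPKM in 35S-GDU5, 0 in gdu1-1D and 9287 FPKM in Col. With them the list sums to 92425 FPKM in 35S-GDU5 and 71705 FPKM in gdu1-1D, the other way round from the tested members. In Col 3 of the 22 members are listed below 1 FPKM. The sums take in untested values listed at 0, so no direction is read from them.

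Circadian clock genes had 1 of 14 called higher and 3 lower (5.32% and 4.92% of all entries). GRP7, a clock-regulated RNA-binding protein, had 231 FPKM in 35S-GDU5, 109 FPKM in gdu1-1D and 115 FPKM in Col (1.03 ± 0.26). PRR9, a morning-phased clock repressor, had 13.2 FPKM in 35S-GDU5, 24.1 FPKM in gdu1-1D and 21.6 FPKM in Col (-0.92 ± 0.19). CCA1, a clock factor that peaks at dawn, had 35.9 FPKM in 35S-GDU5, 58.6 FPKM in gdu1-1D and 70.9 FPKM in Col (-0.76 ± 0.26). RVE8, a clock activator, was also called lower (-0.38 ± 0.13), which centring, standard errors from the test statistic and raised standard errors each ended. In the sprayed parent 4c-S7, from 7 h to 25 h after spraying, GRP7 went from 4102 to 191 FPKM and PRR9 from 0.229 to 19.2 FPKM. There CCA1 went from 0.800 to 37.7 FPKM and RVE8 from 0.542 to 12.9 FPKM. The part of the hour of harvest in the differences between the lines was not tested. The adjusted p, built on the authors' p-values, was 0.00013 for PRR9 and at most 0.0478, for RVE8, over the called genes named here.

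Of 17 nitrogen assimilation genes tested, 2 were called higher and 2 lower (5.32% and 4.92% of all entries), and 13 were not called. GDH2, a glutamate dehydrogenase subunit that can release ammonium from glutamate, had 67.3 FPKM in 35S-GDU5, 19.6 FPKM in gdu1-1D and 14.3 FPKM in Col (1.72 ± 0.57). GDH1, the other main subunit, had 57.6 FPKM in 35S-GDU5, 37.7 FPKM in gdu1-1D and 37.6 FPKM in Col (0.56 ± 0.17). GLU1, the ferredoxin-dependent glutamate synthase of leaves, had 223 FPKM in 35S-GDU5, 383 FPKM in gdu1-1D and 495 FPKM in Col (-0.84 ± 0.29). GLN1;4, a cytosolic glutamine synthetase, had 4.41 FPKM in 35S-GDU5, 7.74 FPKM in gdu1-1D and 6.33 FPKM in Col (-0.86 ± 0.17). Centring and raised standard errors each ended the call of GLU1, and standard errors from the test statistic those of GDH1 and GLN1;4. Amino acid exporters had 1 of 9 called, UMAMIT11, which was lower (-0.77 ± 0.21). Amino acid importers had 1 of 16 called, which was higher. Sugar starvation genes had no call among 7 (median 0.87). DIN2, a beta-glucosidase induced in the dark, was tested in 35S-GDU5 alone, with 17.5 FPKM in 35S-GDU5, 0.253 FPKM in gdu1-1D and 0 in Col. It could pass Cuffdiff's test filter through 35S-GDU5, so nothing is read from its height there. From the authors' p-values the adjusted p was smallest for GLN1;4 (7.30e-05) and largest for GLU1 (0.0461) of the called genes named here.

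The authors' deposited tables call 287 of the 933 higher entries and 97 of the 864 lower ones in opposite directions against Col. The share of opposite calls over all entries was not counted, and entries that changed strongly the same way could rarely be called. Nothing is therefore read from these counts. From the entries with opposite calls, 5 genes each way were taken by their q-values, among entries of 1 gene with a symbol and at least 5 FPKM in a group. On the higher side that rule gave LTP6, PDF1, PME5, HIK and CYCB1;2, described above. On the lower side LEA3, a late embryogenesis abundant protein, had 41.3 FPKM in 35S-GDU5, 104 FPKM in gdu1-1D and 65.3 FPKM in Col (-1.39 ± 0.24). CIPK5, a kinase of calcium signalling, had 11.0 FPKM in 35S-GDU5, 25.5 FPKM in gdu1-1D and 16.9 FPKM in Col (-1.26 ± 0.22). COL1, a CONSTANS-like zinc finger protein, had 23.9 FPKM in 35S-GDU5, 41.4 FPKM in gdu1-1D and 32.4 FPKM in Col (-0.84 ± 0.15). PP2-A11, a phloem protein homologue (-1.10 ± 0.19), and CGLD27, a protein conserved in the green lineage (-0.92 ± 0.17), did likewise. In 4c-S7, from 7 h to 25 h after spraying, LEA3 went from 1.07 to 32.1 FPKM and COL1 from 6.15 to 26.8 FPKM. CIPK5 and PP2-A11 rose there as well, and CGLD27 fell. The part of the hour of harvest in these differences between the lines was not tested. In the authors' deposited tables the q-value of each of these 10 genes is 0.000145 in 35S-GDU5 and 0.000209 in gdu1-1D, the smallest that each table holds. Other entries held the same q-values, and within the rule those with the larger difference were taken. Tested from the authors' p-values, the called genes named here had an adjusted p between LEA3 (p = 6.02e-06) and PDF1 (p = 0.000123). All 10 were chosen for opposite calls at the smallest q-values, which largely fixed this outcome, so it adds no support.

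Further genes with large negative differences came from separate roles. TRY, an inhibitor of trichome formation, had 1.93 FPKM in 35S-GDU5, 9.07 FPKM in gdu1-1D and 16.3 FPKM in Col (-2.29 ± 0.78), and a pseudocount of 1 FPKM or raised standard errors ended its call. FER1, the iron store ferritin, had 25.0 FPKM in 35S-GDU5, 73.0 FPKM in gdu1-1D and 43.3 FPKM in Col (-1.60 ± 0.32), in an entry that covers 48609 bases, and its call was lost with standard errors from the test statistic. It was the only called gene of 14 tested on the iron list. BRG2, a RING protein, had 4.86 FPKM in 35S-GDU5, 13.9 FPKM in gdu1-1D and 14.6 FPKM in Col (-1.56 ± 0.40). cPT4, a cis-prenyltransferase (-1.52 ± 0.33), BZIP34, a bZIP transcription factor (-1.28 ± 0.39), and DML3, a DEMETER-like DNA demethylase (-1.27 ± 0.41), were called lower as well. In 4c-S7, from 7 h to 25 h after spraying, TRY rose from 0.742 to 6.05 FPKM and DML3 from 1.28 to 4.81 FPKM. BRG2 fell there from 45.7 to 13.6 FPKM. The part of the hour of harvest in these differences between the lines was not tested. AT1G32385, a small nucleolar RNA locus chosen after its values were seen, had 0.800 FPKM in 35S-GDU5, 119 FPKM in gdu1-1D and 2.22 FPKM in Col (-7.27 ± 1.54), the most negative difference called. The gdu1-1D line is known as an activation-tagged line; where its insertions lie is not given in the sources used here, and their part in this value was not tested. Among the called genes here, FER1 had the smallest adjusted p (7.30e-05) and TRY the largest (0.0392), computed from the authors' p-values.

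Markers of other cell types gave mixed values. Among 11 guard cell and stomatal lineage genes 2 were called higher (5.32% of all entries) and none lower. SPCH, which starts the stomatal lineage, had 4.08 FPKM in 35S-GDU5, 1.12 FPKM in gdu1-1D and 2.11 FPKM in Col (1.81 ± 0.34). EPF2, a signal peptide of its early cells, had 4.24 FPKM in 35S-GDU5, 1.14 FPKM in gdu1-1D and 1.64 FPKM in Col (1.84 ± 0.46). The mature guard cell gene MYB60 had 8.11 FPKM in 35S-GDU5, 13.6 FPKM in gdu1-1D and 18.8 FPKM in Col (-0.79 ± 0.32, not called). The 11 genes of this list summed to 64.3 FPKM in 35S-GDU5, 72.1 FPKM in gdu1-1D and 92.0 FPKM in Col. Of 6 epidermis and trichome genes tested, PDF1 was called higher and 2, TRY and the joined entry of CER1, lower. The 10 genes of that list summed to 376.6 FPKM in 35S-GDU5, 266.9 FPKM in gdu1-1D and 282.4 FPKM in Col. Vascular genes had 1 lower call, SUC2, the phloem sucrose transporter, among 11, and summed to 246.0 FPKM in 35S-GDU5, 327.8 FPKM in gdu1-1D and 358.3 FPKM in Col. RHD6, of root hairs, was at 0 in all groups. The 7 root genes together had 88.5 FPKM in 35S-GDU5, 22.8 FPKM in gdu1-1D and 16.7 FPKM in Col. Most of that sum in 35S-GDU5 was PYK10, a beta-glucosidase of endoplasmic reticulum bodies, at 65.5 FPKM in 35S-GDU5, 4.74 FPKM in gdu1-1D and 0.270 FPKM in Col. PHT1;4, a phosphate transporter, was the called root gene (2.13 ± 0.54). The list for flowers and siliques summed to 7.84 FPKM in 35S-GDU5, 1.33 FPKM in gdu1-1D and 2.37 FPKM in Col. STM, the shoot meristem gene described above, was the most abundant in 35S-GDU5 at 4.24 FPKM, so the sum does not stand for flowers and siliques alone. The part of these cell types in the differences was not tested.

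The other lines labelled as over-expressors, each against its own control, place these groups. In the group labelled 35S-GDU4 the GDU4 entry, which joins a long stretch, had 10.9 FPKM, against 9.66 FPKM in Col. Its q-value in the authors' deposited tables was 0.949, so over-expression of GDU4 is not shown there. In that group GDU2 had 12.0 FPKM, against 2.92 FPKM in Col, and GDU5 had 5.28 FPKM, against 2.86 FPKM in Col. The median log2 ratio to Col of the mitotic genes was 1.37 in 35S-GDU5 and -0.68 in gdu1-1D, and it was -0.35 in 35S-GDU2, 0.44 in 35S-GDU4 and -0.63 in 35S-GDU6. The core hypoxia genes had a median of 1.57 in 35S-GDU5 and 0.16 in gdu1-1D, and between 0.04 and 0.20 in the other 3 constitutive lines compared here. LBD41 had 22.7 FPKM in 35S-GDU5, 1.14 FPKM in gdu1-1D, 0.928 FPKM in 35S-GDU2, 1.01 FPKM in 35S-GDU4, 1.41 FPKM in 35S-GDU6 and 0.846 FPKM in Col. CML38, of the same list, was above Col in the other lines too. It had 26.1 FPKM in 35S-GDU5, 3.59 FPKM in gdu1-1D and 2.02 FPKM in Col. Its level was 5.82 FPKM in 35S-GDU2, 11.5 FPKM in 35S-GDU4 and 11.9 FPKM in 35S-GDU6. The light-signalling regulators had a median of -1.06 in 35S-GDU5, 0.00 in gdu1-1D and -0.95 in 35S-GDU6, against -0.11 in 35S-GDU2 and -0.13 in 35S-GDU4. BBX31 had 1.58 FPKM in 35S-GDU5, 7.59 FPKM in gdu1-1D, 7.08 FPKM in 35S-GDU2, 2.66 FPKM in 35S-GDU4, 1.43 FPKM in 35S-GDU6 and 6.15 FPKM in Col. The 5 constitutive lines compared here share the Col libraries, so these medians are not independent of each other. The 35S-GDU1 and 35S-GDU3 groups, with 1 library each, were not compared.

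**Figure D5:**
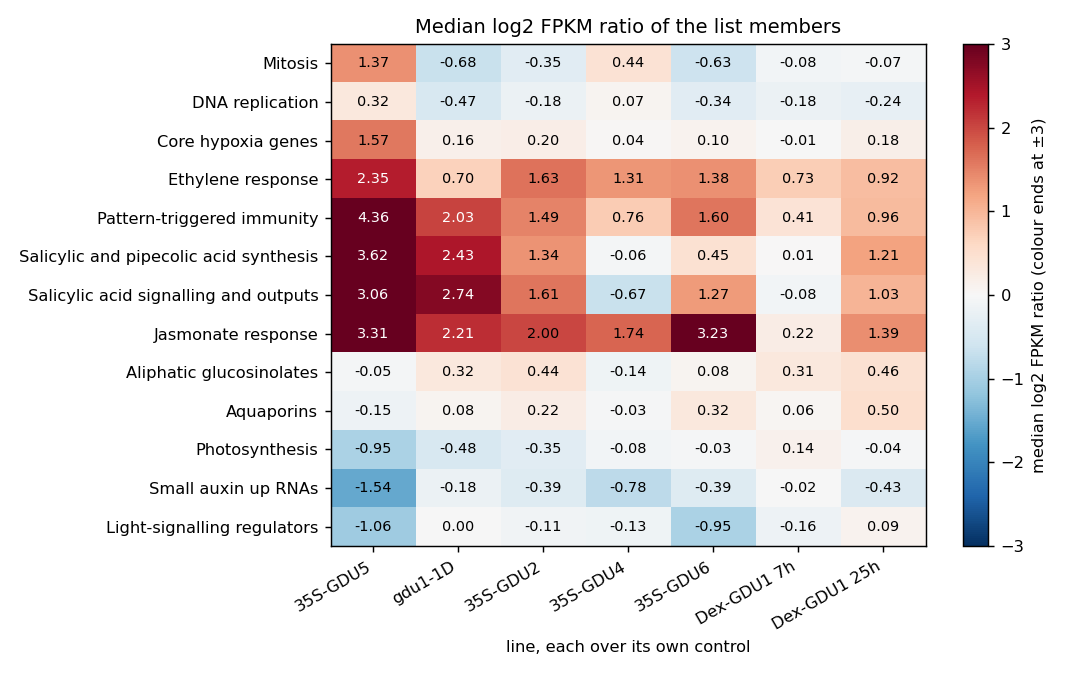
Median log2 FPKM ratio of the tested members of 13 gene lists in 7 comparisons, the constitutive lines over Col and the dexamethasone-induced GDU1 line, 7 and 25 hours after spraying, over its sprayed parent. Mitotic and core hypoxia genes are highest in 35S-GDU5 (1.37 and 1.57), and immunity genes have a median of 4.36 in 35S-GDU5 and 2.03 in gdu1-1D.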

How the data were processed

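RNA of leaves was sequenced as paired reads of 100 bases. Per the submitters' processing notes, reads were processed with TopHat2, Cufflinks and Cuffdiff on TAIR10. Versions, annotation, strand setting and reads per library are not given in the sources used here, so depth is unknown and overlapping genes on opposite strands cannot be told apart. The authors deposited FPKM as 1 value per entry and group, computed separately for each comparison. The p-value and q-value of each entry are those of the authors' deposited tables, with 5e-05 as the smallest p-value. The deposited score of each entry is Cuffdiff's test statistic, per the file headers.

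Log2 ratios were computed here from the FPKM values with no pseudocount. Col differed between both tables by 1 factor, 1.04, for 99.994% of entries to within 1%, and that factor drops out of the differences. The standard error of a log2 ratio was its size over the normal quantile of its p-value. The combination ignores that both lines share Col, which alone makes the standard error too large, while standard errors from the test statistic were larger still for some entries, so it can also be too small. The procedure was run on simulated data with known differences. Their p-values were made from the size of the simulated normal errors. The run therefore could not probe the gap between standard errors from p-values and from the test statistic. Starts are counted from 0 in the tables (10362 of 31289 single entries match the annotated TAIR10.1 start once 1 is added, and 126 as listed) and are printed with 1 added. Names were given to 31877 of 32650 entries, and 1238 entries join several genes.

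Named genes are every GDU gene and LOG2, 5 tabled genes on each side of GDU1 and GDU5, the 15 called genes with the largest difference each way among entries of 1 gene with a symbol and at least 5 FPKM in a group, the 5 such genes each way with the smallest q among those the authors called in opposite directions, and up to 4 called members of each list with at least 3. Other members are given for their role. The contrast, its 44 gene lists (626 members, 620 measured, 529 tested) and these rules were chosen with earlier results of these data known, and 7 of the lists (mitosis, DNA replication, leaf growth regulators, hypoxia, small auxin up RNAs, light-signalling regulators and shoot apex) were added after the values were seen. Proline metabolism, lysine and branched-chain breakdown, abscisic acid, drought and cold, endoplasmic reticulum stress, heat shock, detoxification, senescence, flavonoid, jasmonate synthesis, sugar transport and floral transition lists had at most 2 calls in either direction. Python 3 with numpy, pandas and scipy was used. A called member of the auxin response and vascular lists is not reported here.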

Additional observations from a re-analysis of the deposited data

Results flagged for a closer look

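The authors' deposited tables call 287 of the higher and 97 of the lower entries in opposite directions against Col, and 5 genes each way are given as examples. The share of opposite calls over all entries was not counted, so nothing is read from these counts. The example genes were chosen for those opposite calls, so the test of the difference is no further support. The log2 differences, 35S-GDU5 minus gdu1-1D, were 4.77 for LTP6, 3.16 for PDF1, 2.93 for PME5, 2.62 for HIK and 2.44 for CYC1BAT on the higher side. On the lower side they were -1.39 for LEA3, -1.26 for CIPK5, -1.10 for PP2-A11, -0.92 for CGLD27 and -0.84 for COL1.

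Some values lie in entries without a difference. STM, KNAT6, CYP78A5 (KLU), GRF5 and DIN2 were tested in the 35S-GDU5 table alone. Such entries could pass Cuffdiff's test filter through the group where they are high, so nothing is read from their height there. STM had 4.24 FPKM in 35S-GDU5 and was listed at 0 in gdu1-1D and Col. KNAT6 had 3.35 FPKM in 35S-GDU5, 0.228 FPKM in gdu1-1D and 0.266 FPKM in Col. CYP78A5 had 2.90 FPKM in 35S-GDU5 and was listed at 0 in the others. GRF5 had 4.78 FPKM in 35S-GDU5 and 0.0463 FPKM in gdu1-1D, and DIN2 had 17.5 FPKM in 35S-GDU5 and 0.253 FPKM in gdu1-1D. An unnamed transcript on chromosome 4 from 15358129 to 15358453, upstream of GDU1, had 3.15 FPKM in gdu1-1D and was listed at 0 in 35S-GDU5 and Col. It was tested in gdu1-1D alone, with the same limit. Where the insertions of this activation-tagged line lie is not given in the sources used here, and their part in the value was not tested. The plastid tRNA entry TRNH, which no table tests, was listed at 459578 FPKM in 35S-GDU5 and at 0 in gdu1-1D, Col and the 5 other line groups compared here.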

How the results depend on the processing

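Higher and lower calls came to 933 and 864. They were 578 and 364 at an adjusted p below 0.01, and 435 and 128 with a difference of at least 1. They were 543 and 273 with the standard error from the test statistic, of which 289 and 188 were among the main calls. They were 596 and 519 with standard errors raised to the typical one at that level. They were 2462 and 2940 with the shared Col libraries taken out under equal variances, and 2018 and 2171 with the typical standard error at the smallest p-value, chosen after seeing the data. A minimum FPKM, a pseudocount, centring and leaving out joined entries kept both counts within 1.5 times. Of 92 named entries, 28 lost their call at an adjusted p below 0.01 and 27 with a minimum difference of 1. The call was lost for 24 with the test statistic, 17 with raised standard errors, 6 with centring and 2 with a pseudocount. With the shared Col taken out 4 neighbours gained a call. The sign of TAFII15, beside GDU1 and never called, turned with centring (0.0055). The cause was not tested. No paired analysis was possible because the tables hold 1 value per group, and no library could be left out for the same reason.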
